A study of Homo sapiens with 8 samples.

Results

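The 8 genes described here encode parts of the extracellular matrix and of the contractile apparatus that are often read as signs of a fibroblast-like state: the collagen VI chains COL6A1 and COL6A2, the laminin chains LAMB1 and LAMC1, fibronectin (FN1), smooth muscle alpha-actin (ACTA2), the surface glycoprotein THY1 and the microfibril protein MFAP5. They were chosen by name, and all 8 had a row in the deposited table of 13841 gene rows. Levels were compared between 2 groups of A549 cells, an established line of human lung adenocarcinoma that serves as a model of alveolar epithelium. Both groups had been stretched cyclically (15% elongation at 15 cycles per min for 24 h) and cultured for 6 more days. The first comprised 4 libraries of β-galactosidase-positive cells, which the labels call senescent (positive 1, 3, 4 and 5), and the second 4 libraries of β-galactosidase-negative cells (negative 2, 6, 7 and 8). The cells are 1 tumour line, stretch was given to all of them, and unstretched cells were not analysed here.

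Laminins and type IV collagens are the main polymers of the basement membrane, the sheet on which epithelial cells rest, and laminin is assembled from 1 alpha, 1 beta and 1 gamma chain. Collagen VI forms beaded filaments where the basement membrane meets the interstitial matrix. Fibronectin is laid down by epithelial cells and fibroblasts alike and binds integrins. ACTA2 is the actin isoform of smooth muscle and the usual marker of the myofibroblast, the contractile fibroblast of scarring lung, whereas THY1 and MFAP5 mark fibroblast subsets. In bulk samples such as these, fewer cells of a type and less RNA per cell cannot be told apart.

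The promoters shown are those of COL6A2, a collagen VI chain whose groups did not overlap, and of ACTA2, the member with the lowest log2 fold change. RefSeq sequences (build GRCh38.p14) were matched for 5 of the 8 members, COL6A1, THY1 and MFAP5 being the others, and each line gives the 250 bases before the transcription start, 5′ to 3′ on the coding strand. COL6A2 lies at chr21:46097862-46098111 on the plus strand, where capitals mark GGGCGG on either strand (the binding motif of SP1) and TATAAA. For ACTA2, which has 2 listed starts, the window is chr10:88952774-88953023 on the minus strand, and capitals mark CArG boxes, the binding motif of serum response factor, with at most 1 G or C among their central bases.
COL6A2: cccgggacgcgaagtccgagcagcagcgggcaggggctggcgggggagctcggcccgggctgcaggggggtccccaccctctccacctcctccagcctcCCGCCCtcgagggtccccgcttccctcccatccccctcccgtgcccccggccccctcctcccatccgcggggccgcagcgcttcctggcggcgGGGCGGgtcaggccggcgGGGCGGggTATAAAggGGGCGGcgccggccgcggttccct
ACTA2: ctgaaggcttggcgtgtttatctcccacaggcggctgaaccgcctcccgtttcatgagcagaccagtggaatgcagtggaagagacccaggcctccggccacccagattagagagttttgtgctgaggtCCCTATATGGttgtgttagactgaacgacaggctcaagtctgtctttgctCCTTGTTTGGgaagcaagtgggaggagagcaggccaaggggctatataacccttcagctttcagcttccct
The COL6A2 window holds GGGCGG 4 times and TATAAA 1 time, motifs found in 42.6% and 10.7% of 35116 promoter windows of this length, both strands searched. The ACTA2 window holds 2 such CArG boxes, beginning 121 and 71 bases before the start, and 7.04% of windows hold at least 1. The window at the other listed start of ACTA2 holds 0. These are matches of letters, and binding was not measured.

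The assay read amplicons of targeted transcripts, so levels are compared between groups for 1 gene and not between genes. Total counts ranged from 5634961 to 7990839 per library. Values are CPM, counts scaled to library size after TMM normalization, and differences are log2 fold changes of positive over negative cells from edgeR's quasi-likelihood test over 11351 tested rows, of which 0 passed an adjusted p of 0.05 (0%). At an unadjusted p under 0.05 there were 14.4% of rows, 7.52% higher and 6.85% lower in positive cells. The 4 values of one group lay wholly outside those of the other for 9.14% of rows, 5% higher and 4.14% lower, and the log2 fold change was above 0 in 48.1% and below 0 in 51.9% of rows, with a median of -0.02. Scaling by library totals alone moved that median to 0.10 and the split at an unadjusted p under 0.05 to 10.2% higher and 2.85% lower, and upper quartile scaling moved the split to 9.57% and 4.26%. Positive 1 and negative 2 stood apart from the other libraries, with a median root-mean-square distance to the others of 0.73 and 0.89 on the log2-CPM scale, against 0.52 to 0.59 for the other 6, so fold changes are also given without both. The labels do not name separate cultures, so p-values measure the spread between these libraries, which may be technical.

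No member passed the adjusted threshold, the smallest adjusted p of edgeR's test being 0.309. COL6A1 was higher and ACTA2 lower in positive cells at an unadjusted p under 0.05, that is 2 of 8 members (25%) against 14.4% of all rows. COL6A1 and COL6A2 were the 2 of 8 members whose groups did not overlap, against 9.14% of all rows. Both were higher in positive cells, as were 5% of all rows. The median log2 fold change of the 8 was 0.02, close to that of all rows, with 4 members above 0 and 4 below, of which LAMB1 changed sign with scaling by library totals or the upper quartile.

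**Figure D1:**
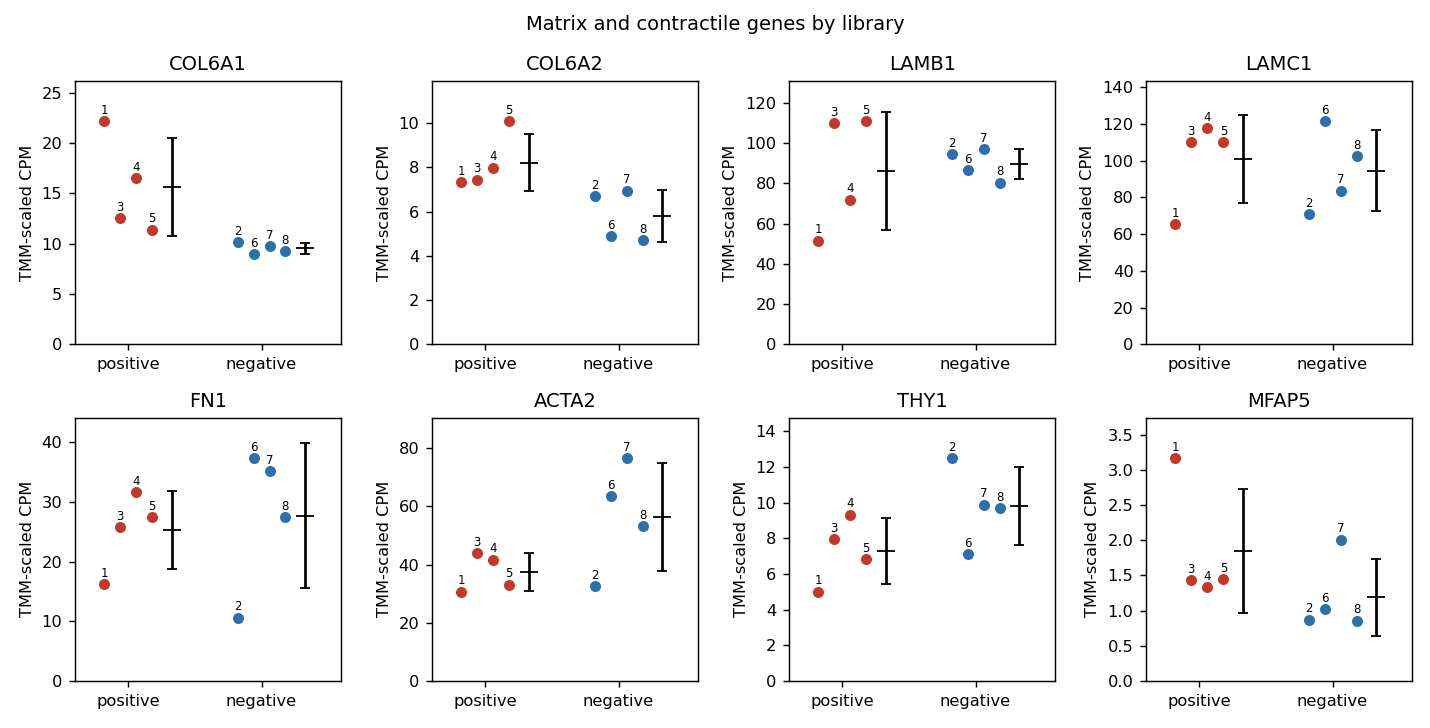
TMM-scaled CPM of the 8 members (vertical axes from 0) in each library, positive cells left and negative cells right; points are libraries with their numbers, and the bar beside each group is its mean ± SD (n = 4). The positive libraries lie above all negative ones for COL6A1 and COL6A2, and negative 2 lies with the positive libraries for ACTA2.

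COL6A1 and COL6A2 encode 2 of the 3 chains of the common collagen VI molecule. They lie 93.05 kb apart on the same strand of chromosome 21, at 45981737 to 46005050 and 46098097 to 46132849 (GRCh38, GENCODE annotation). COL6A1 was at 22.2, 12.5, 16.5 and 11.4 CPM in positive 1, 3, 4 and 5, against 10.2, 8.97, 9.73 and 9.27 CPM in negative 2, 6, 7 and 8. Every positive library stood above every negative one, and positive 1 was the highest, while the negative libraries were nearly level. Counting alone gives a spread of about 10.8% of the mean, more than the 5.55% seen among negative libraries and less than the 31.1% among positive ones. The positive mean was 15.7 ± 4.87 CPM and the negative mean 9.54 ± 0.53 CPM (SD, n = 4 each), a 1.64-fold difference. The log2 fold change was 0.71 (SE 0.24, 95% interval 0.18 to 1.24, adjusted p = 0.309 by edgeR's quasi-likelihood test). It was 0.50 without positive 1, 0.55 when negative 2 was left out as well, and 0.52 after removal of a smooth curve over GC content and transcript length. Its unadjusted p stayed under 0.05 in all 19 alternative fits, and its adjusted p stayed above 0.05 in each, at 0.173 or more.

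COL6A2 was at 7.34, 7.45, 7.99 and 10.1 CPM in positive 1, 3, 4 and 5, against 6.69, 4.91, 6.95 and 4.71 CPM in negative 2, 6, 7 and 8. The groups again did not overlap, but positive 1 and negative 7 were only 7.34 and 6.95 CPM. Positive cells averaged 8.22 ± 1.28 CPM and negative cells 5.81 ± 1.17 CPM (SD, n = 4 each), with a log2 fold change of 0.50 (95% interval -0.04 to 1.04, edgeR adjusted p = 0.368). It was 0.64 without both libraries that stood apart and 0.32 with the GC and length curve removed. Counts ran from 29 to 77, for which counting alone gives a spread of about 14.3% of the mean, close to the 15.6% and 20.1% seen among positive and negative libraries.

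The ratio of COL6A2 to COL6A1 counts, which needs no scaling between libraries, was 0.331, 0.594, 0.484 and 0.885 in positive 1, 3, 4 and 5, against 0.657, 0.547, 0.714 and 0.508 in negative 2, 6, 7 and 8. The positive libraries held both the lowest and the highest ratio. On the log2 scale (1 added to each count) positive cells averaged -0.88 ± 0.58 and negative cells -0.72 ± 0.22 (SD, n = 4 each), which did not differ beyond their spread (exact two-sided permutation p = 0.657; 70 assignments allow 0.0286 at the lowest). The third chain, COL6A3, had no row under that name in the deposited table.

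LAMB1 and LAMC1 encode the beta 1 and gamma 1 chains shared by most laminins. LAMB1 (chromosome 7, 107923799 to 108003255) was at 51.6, 110, 71.9 and 111 CPM in positive 1, 3, 4 and 5, against 94.7, 86.7, 96.9 and 80.4 CPM in negative 2, 6, 7 and 8. The positive libraries spread to both sides of the negative ones. Its log2 fold change was -0.06 (95% interval -0.56 to 0.45, edgeR adjusted p = 0.920), and 0.17 without both libraries that stood apart, so no direction is given.

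LAMC1 (chromosome 1, 183023460 to 183145592) was at 65.4, 110, 118 and 110 CPM in positive 1, 3, 4 and 5, against 70.8, 122, 83.7 and 102 CPM in negative 2, 6, 7 and 8. Positive 1 and negative 2 were the 2 lowest libraries. The log2 fold change was 0.09 (95% interval -0.39 to 0.58, edgeR adjusted p = 0.851), and 0.16 without both. The intervals leave room for log2 differences from -0.56 to 0.45 for LAMB1 and from -0.39 to 0.58 for LAMC1. The log2 ratio of LAMC1 to LAMB1 was 0.26 ± 0.34 for positive and 0.05 ± 0.43 for negative libraries (SD, n = 4 each; exact two-sided permutation p = 0.486). The difference of 0.21 became 0.03 without both libraries that stood apart.

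Some other genes of the basement membrane behaved otherwise. They come from a list of 23 that was chosen with earlier results of these data known, so its counts are a description and not a separate test. Of 17 tested members, LAMB1 and LAMC1 included, 7 were higher in positive cells at an unadjusted p under 0.05 (41.2%, against 7.52% of all rows) and 0 lower, 14 had a log2 fold change above 0 (15 with scaling by library totals, where LAMB1 changed sign), and the median was 0.37 against -0.02 over all rows. None passed the adjusted threshold in edgeR's test (adjusted p = 0.309 for each of the 7). The 7 were COL4A2, COL4A3, COL4A5 and COL4A6, which encode chains of type IV collagen, COL18A1, a basement membrane collagen whose fragment is endostatin, AGRN, the proteoglycan agrin, and LAMA5, the laminin alpha 5 chain. In each of the 7 every positive library lay above every negative one, as in 5% of all rows. The 7 were picked by p from these same values, so this is not separate support. All 7 kept an unadjusted p under 0.05 in every alternative fit in which they were tested, among them the fits that left out positive 1, negative 2 or the pair. With the GC and length curve removed the list's median was 0.18, though the same 7 were still at an unadjusted p under 0.05.

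COL18A1, which had the smallest p of the list, was at 176, 124, 98.7 and 105 CPM in positive 1, 3, 4 and 5, against 30.4, 67.4, 56.0 and 70.7 CPM in negative 2, 6, 7 and 8. The extremes were again positive 1 and negative 2. Its log2 fold change was 1.16 (95% interval 0.58 to 1.75), 0.77 without both of those libraries, and DESeq2's Wald test called it (adjusted p = 0.0368), the only 1 of the 7 that any alternative called. COL18A1 lies on chromosome 21 at 45405137 to 45513720.

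AGRN was at 40.9, 17.9, 24.2 and 19.7 CPM in positive 1, 3, 4 and 5, against 6.98, 11.8, 13.1 and 13.8 CPM in negative 2, 6, 7 and 8, a log2 fold change of 1.16 (0.69 without both). COL4A2 was at 58.7, 44.9, 40.9 and 44.2 CPM in the same positive libraries, against 19.8, 26.2, 27.2 and 34.2 CPM in the negative ones, a log2 fold change of 0.81 (0.59 without both). The lowest positive values of AGRN and COL4A2, 17.9 and 40.9 CPM, were above the highest negative ones, 13.8 and 34.2 CPM. Leaving out positive 1 and negative 2, the highest positive and lowest negative library of both genes, cannot change these values. COL4A5 averaged 250 and 131 CPM in positive and negative cells, COL4A6 24.9 and 15.6, COL4A3 6.37 and 3.17, and LAMA5 82.3 and 43.1, at log2 fold changes of 0.93, 0.68, 1.0 and 0.93, and at 0.56, 0.58, 0.92 and 0.48 without both. COL4A5 and COL4A6 start 346 bases apart on opposite strands of chromosome X.

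COL4A1, whose 5′ end overlaps that of COL4A2 on the opposite strand of chromosome 13, was at 4.86 and 4.31 CPM in positive and negative cells (log2 fold change 0.16, 95% interval -0.53 to 0.85), 0.10 without both and -0.01 without positive 1 alone. Whether the pair differed from each other was not tested. Other tested genes of the list had intervals that spanned 0, with LAMA3 at 0.51, LAMB2 at 0.37, HSPG2 (perlecan) at 0.32, LAMB3 at 0.27, NID2 at 0.01 and NID1 at -0.63. Without both these were 0.15, 0.15, 0.36, 0.29, 0.16 and -0.81, and the median of the list was 0.29. The summed level of the list was 1042, 839, 750.1 and 814 CPM in positive 1, 3, 4 and 5, against 428, 626, 564 and 637 CPM in negative 2, 6, 7 and 8. The groups did not overlap, and leaving out positive 1 and negative 2, the highest and the lowest library, could not change that. The sum contains the 7 genes named above and is not a separate result.

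**Figure D2:**
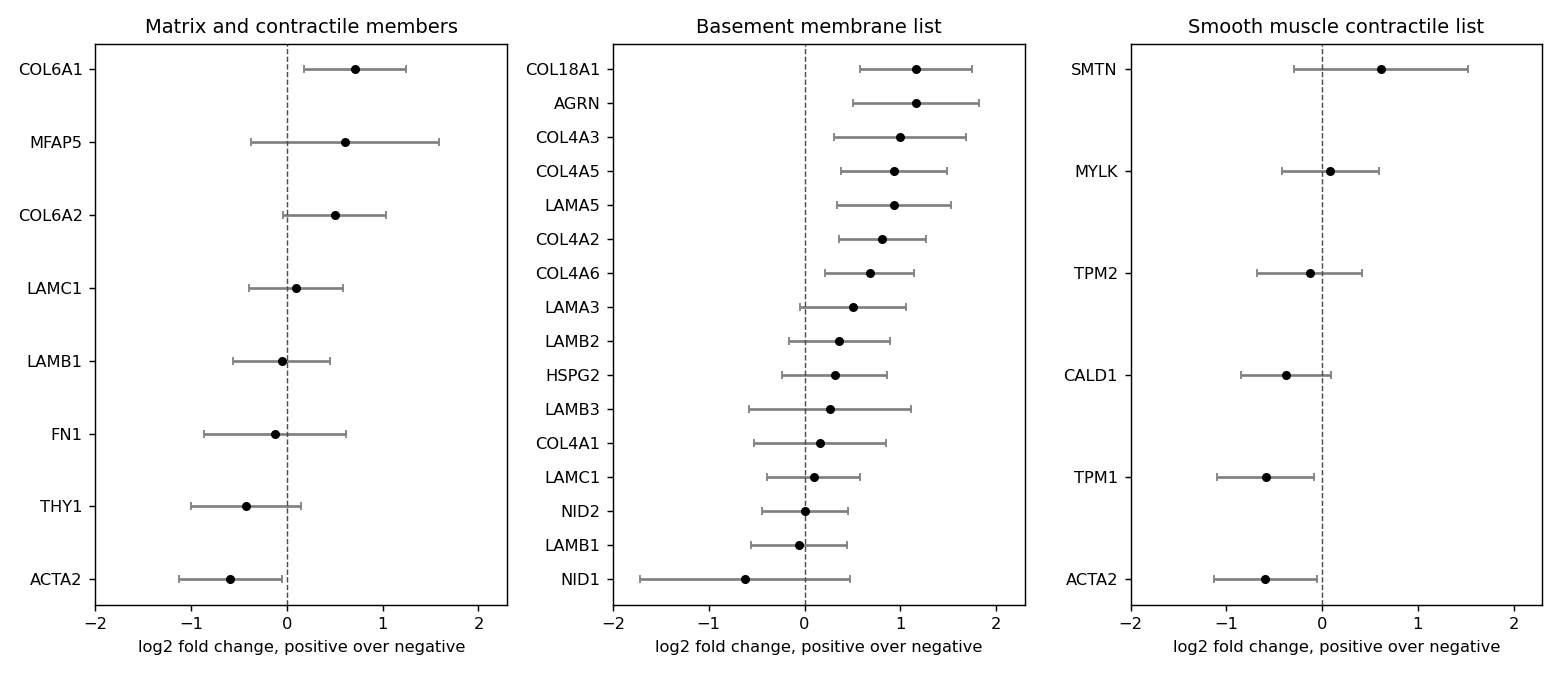
Log2 fold change of positive over negative cells (horizontal axis) with 95% intervals from edgeR's test, for the 8 members (left), all but 1 of the 17 tested basement membrane genes (middle) and the tested smooth muscle contractile genes (right). Of the basement membrane genes 7 have intervals wholly above 0, and of the 6 contractile genes 2, TPM1 and ACTA2, have intervals wholly below 0.

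Other matrix lists showed fewer such genes. Of 5 tested fibrillar and associated collagens 1 was higher at an unadjusted p under 0.05 (20%, against 7.52% of all rows) and 0 lower, too few genes to compare shares. It was COL27A1, at 11.7 and 5.58 CPM in positive and negative cells (log2 fold change 1.06, or 0.61 without both libraries that stood apart, edgeR adjusted p = 0.309). COL5A1 and COL5A2, chains of the collagen that limits fibril width, were at -0.31 and -0.13 (-0.10 and -0.03 without both) with intervals that spanned 0. Of 21 tested genes of collagen processing 2 were higher (9.52%, near the 7.52% of all rows) and 0 lower at that threshold, PLOD3, a lysyl hydroxylase that also glycosylates collagen, at 24.1 and 14.7 CPM (log2 fold change 0.72, or 0.66 without both), and LOXL4, a cross-linking enzyme, at 2.07 and 0.90 CPM (1.17, or 1.23 without both). P3H3, a prolyl hydroxylase of collagen, followed at 0.42 (95% interval -0.01 to 0.84, 0.37 without both). LOXL4 had only 4 to 18 counts per library, near the limit of detection. The median of the collagen processing list was 0.31.

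FN1 (chromosome 2, 215360440 to 215436172) was at 16.2, 25.7, 31.7 and 27.5 CPM in positive 1, 3, 4 and 5, against 10.6, 37.4, 35.2 and 27.5 CPM in negative 2, 6, 7 and 8. Negative 2 was the lowest library and positive 1 the next, and the rest of the groups intermingled. The mean levels were 25.3 ± 6.57 and 27.7 ± 12.1 CPM in positive and negative cells (SD, n = 4 each), with a log2 fold change of -0.13 (95% interval -0.86 to 0.61, edgeR adjusted p = 0.872). It was -0.22 without both libraries that stood apart and 0.035 without positive 1 alone, so the data set no direction. Among 8 tested matrix glycoproteins 0 had an unadjusted p under 0.05 in either direction. Those of smallest p were CYR61 (CCN1), at 0.24, SPARC at 0.44 and thrombospondin 1 (THBS1) at 0.27, all with intervals that spanned 0. Without both libraries CYR61 was at 0.10 and SPARC at 0.31, whereas THBS1 turned to -0.19, and to -0.03 without positive 1 alone and -0.12 with voom.

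ACTA2 (chromosome 10, 88935074 to 88991339) was at 30.7, 44.0, 41.7 and 33.2 CPM in positive 1, 3, 4 and 5, against 32.6, 63.5, 76.7 and 53.2 CPM in negative 2, 6, 7 and 8. Negative 6, 7 and 8 lay above all positive libraries, whereas negative 2 lay among them. ACTA2 averaged 37.4 ± 6.47 CPM in positive cells and 56.5 ± 18.6 CPM in negative cells (SD, n = 4 each), and the fitted ratio was 0.663. The log2 fold change was -0.59 (SE 0.25, 95% interval -1.13 to -0.06, adjusted p = 0.323 by edgeR's quasi-likelihood test). Without negative 2 the log2 fold change was -0.77, without both libraries that stood apart -0.68, without negative 7 -0.41 and with the GC and length curve removed -0.46. It was below 0 in all 19 alternative fits and at an unadjusted p under 0.05 in 11. Exons of ACTA2 share 380 bases with FAS and 516 with ACTA2-AS1 on the opposite strand. The sources used here do not say whether counting used strand, so reads of these genes may not be told apart.

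Of 14 listed smooth muscle contractile genes 6 were tested, of which 0 were higher and 2 lower in positive cells at an unadjusted p under 0.05 (6.85% of all rows were lower), ACTA2 itself among them. The other was TPM1, a tropomyosin that lies along actin filaments, at 137, 130, 129 and 135 CPM in positive 1, 3, 4 and 5, against 317, 172, 169 and 141 CPM in negative 2, 6, 7 and 8. All positive libraries were below all negative ones, and negative 2 stood far above the rest. The log2 fold change of TPM1 was -0.59 (95% interval -1.09 to -0.08, edgeR adjusted p = 0.319), and -0.26 without negative 2, where its unadjusted p was 0.11. CALD1, a caldesmon that binds actin and myosin, was at -0.38 (95% interval -0.84 to 0.09), TPM2 at -0.13, MYLK, the myosin light chain kinase, at 0.09 and SMTN at 0.62, all with intervals that spanned 0. Without both libraries these were -0.10, -0.35, -0.11 and 0.58, TPM1 was at -0.27 and the median of the list, -0.25, was -0.19. TAGLN, MYL9 and MYH11 were at or below 3.20 CPM in every library, the highest value being that of TAGLN in negative 2, and were not tested. ACTG2, CNN1, DES, LMOD1 and SYNPO2 had no row under those names in the deposited table. The count of 2 was 1 without any 1 of positive 1, positive 3, positive 4, negative 2, negative 6, negative 7 or negative 8, and 1 with scaling by library totals or the upper quartile, with the GC and length curve removed, or with positive 1 and negative 2 both left out.

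The non-muscle actin and myosin genes, on which any epithelial cell relies, held 2 lower and 1 higher of 12 tested at an unadjusted p under 0.05 (16.7% and 8.33%, against 6.85% and 7.52% of all rows). ACTN4 alone kept an unadjusted p under 0.05 in every alternative. The count was 4 lower (ACTB, ACTN4, MYL12B and ROCK2) and 0 higher without both libraries that stood apart, and 5 lower and 0 higher with voom. With 1 library left out it was from 1 to 4 lower and 0 to 1 higher. ACTN4, an alpha-actinin that cross-links actin, was at 428, 409, 386 and 426 CPM in positive 1, 3, 4 and 5, against 747, 555, 590.3 and 489.5 CPM in negative 2, 6, 7 and 8 (log2 fold change -0.53, edgeR adjusted p = 0.309). Its groups did not overlap, and it was at -0.40 without both libraries that stood apart. TPM4 was at -0.38, but at -0.22 with an unadjusted p of 0.16 without negative 2 and at -0.24 without both. ACTN1 was at -0.40 (-0.14 without both) with an interval that spanned 0. MYH9, a non-muscle myosin heavy chain, was at 0.62, with positive 1 at 895 CPM and the other positive libraries between 380.1 and 499.5, and at 0.14 without both. ACTB was at -0.21 (95% interval -0.59 to 0.18, -0.35 without both). All but MYH9 of the 12, that is 11, were below 0, though TPM3, ROCK1 and MYL12A, at -0.01, -0.01 and -0.08, changed sign with scaling by library totals alone. The coactivators of serum response factor MKL1 and MKL2 were at -0.11 and -0.20 (-0.33 and -0.03 without both), with intervals that spanned 0. SRF had no row under that name in the deposited table.

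**Figure D3:**
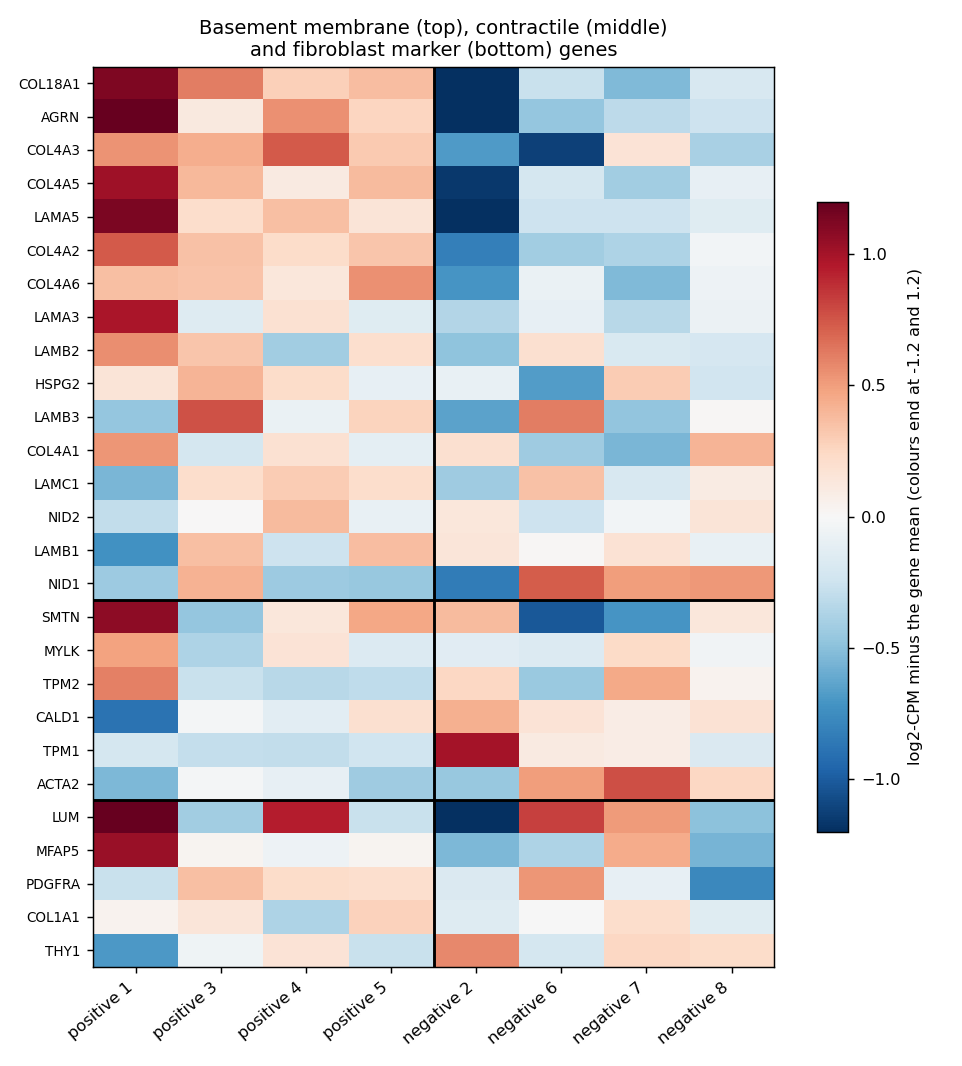
Log2-CPM minus the gene's mean over the 8 libraries (colour) for tested basement membrane (top, all but 1), smooth muscle contractile (middle) and fibroblast marker genes (bottom), with positive libraries left of the line. The 7 basement membrane genes named in the text are above their mean in all positive libraries, while fibroblast marker rows show no common pattern.

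THY1 (chromosome 11, 119417378 to 119424985) was at 5.01, 7.97, 9.33 and 6.82 CPM in positive 1, 3, 4 and 5, against 12.5, 7.11, 9.88 and 9.70 CPM in negative 2, 6, 7 and 8. Positive 1 was the lowest and negative 2 the highest library, and the others overlapped. Its log2 fold change of -0.43 (95% interval -1.0 to 0.15, edgeR adjusted p = 0.447) was -0.13 without these 2 libraries. Counts of THY1 ran from 30 to 86, and its exons share 632 bases with AP003396.5 on the opposite strand, as those of LAMB1 share 221 with AC005046.1.

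MFAP5 (chromosome 12, 8637346 to 8662888) was near the limit of detection, with 19, 11, 10 and 11 counts in positive 1, 3, 4 and 5, against 6, 6, 13 and 6 counts in negative 2, 6, 7 and 8. This came to 3.17, 1.44, 1.33 and 1.44 CPM in the positive libraries, against 0.87, 1.02, 2.01 and 0.86 CPM in the negative ones. Positive 1 and negative 7 were the high libraries of their groups. The log2 fold change was 0.61 (95% interval -0.37 to 1.59, edgeR adjusted p = 0.515), 0.24 without positive 1 and 0.14 when negative 2 was left out too. At a mean count of this size counting alone gives a spread of 31.2%, and no difference was detected at this depth.

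THY1 and MFAP5 stand in a list of 14 fibroblast markers, of which 8 were measured and 5 tested. None of the 5 had an unadjusted p under 0.05 in either direction. COL1A1, a chain of the main fibroblast collagen, was at 7.53 and 7.22 CPM in positive and negative cells (log2 fold change 0.06, 95% interval -0.46 to 0.58, 0.04 without both), PDGFRA at 1.88 and 1.6 CPM and lumican (LUM) at 2.15 and 1.35 CPM, with 0 counts of LUM in negative 2. The log2 fold changes of PDGFRA and LUM were 0.26 and 0.67, and 0.37 and -0.14 without both libraries that stood apart. COL3A1, DCN and PI16 were at or below 1.05 CPM in every library and not tested. COL1A2, COL14A1, PDGFRB, FAP, POSTN and TCF21 had no row under those names in the deposited table. The summed level of the 8 measured markers was 22.5, 22.1, 21.7 and 21.6 CPM in positive 1, 3, 4 and 5, against 22.2, 21.5, 24.9 and 19.96 CPM in negative 2, 6, 7 and 8. The positive libraries lay within the range of the negative ones.

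Of the related lists, 0 of 5 tested genes of elastic fibres and 0 of 5 proteoglycans had an unadjusted p under 0.05. FBN2, a fibrillin of microfibrils, was at 52.0 and 46.9 CPM in positive and negative cells, elastin (ELN) at 2.80 and 2.03 CPM and the syndecan SDC1 at 21.1 and 17.3 CPM. Their log2 fold changes of 0.15, 0.43 and 0.28 (0.04, 0.31 and 0.24 without both) had intervals that spanned 0.

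**Figure D4:**
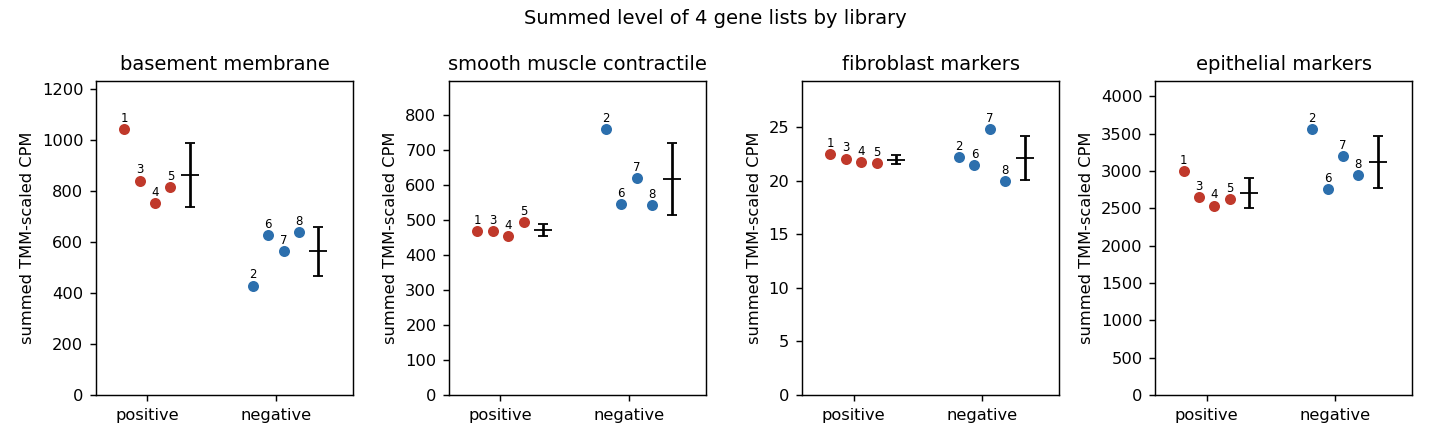
Summed TMM-scaled CPM of the measured genes of 4 lists (vertical axes from 0), positive cells left and negative cells right; points are libraries with their numbers, and the bar beside each group is its mean ± SD (n = 4). The positive libraries lie above the negative ones for the basement membrane list and below them for the smooth muscle contractile list, and overlap with them for fibroblast and epithelial markers.

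Epithelial markers were read in every library of both groups, although CLDN7, at or below 1.0 CPM, was too low to test. The keratins KRT7, KRT8 and KRT18 averaged 1322, 623 and 566 CPM in positive and 1361, 892 and 647 CPM in negative cells, and E-cadherin (CDH1) 46.5 and 57.8 CPM. KRT8, with the smallest p of 7 tested epithelial markers, was at a log2 fold change of -0.52 (95% interval -1.05 to 0.02, edgeR adjusted p = 0.356), ahead of CDH1 at -0.31 and CLDN4 at 0.46 (-0.42, -0.12 and 0.39 without both). With all libraries 0 of the 7 had an unadjusted p under 0.05. Without both, KRT8 and KRT19 were lower at that threshold (edgeR unadjusted p = 0.042 and 0.037). KRT8 was also lower at it in some other alternatives, voom among them, and CLDN4 was higher without negative 8. Of 5 tested regulators and markers of mesenchymal transition, all 5 were below 0 (51.9% of all rows were) and 0 had an unadjusted p under 0.05. With scaling by library totals 4 were below 0, as ZEB1 changed sign. ZEB1 was at 7.45 to 10.2 CPM in positive cells and at 17.9 CPM in negative 2. In negative 6, 7 and 8 it was at 5.59, 6.64 and 6.84 CPM, below every positive library, so its sign rested on negative 2. Vimentin (VIM), the intermediate filament of mesenchymal cells, was at 743 and 919 CPM in positive and negative cells, ZEB2 at 2.89 and 3.91 CPM and TWIST1 at 5.45 and 6.67 CPM, at log2 fold changes of -0.31, -0.43 and -0.29 (-0.18, -0.15 and -0.08 without both). Of other cell types, the 1 endothelial marker measured, CDH5, reached 1.176 CPM at most and was at 0 in 3 libraries. The smooth muscle marker MYH11 reached 0.50 CPM and was also at 0 in 3 libraries. The immune markers CD68, LYZ and CD14 together came to 70.2 to 75.1 CPM in positive and 57.0 to 75.5 CPM in negative cells, at log2 fold changes of 0.14, 0.17 and 0.11 (0.18, 0.18 and -0.10 without both). PTPRC and CD3E had no row under those names in the deposited table. Whether any of these transcripts came from other cell types, and any part of such cells in the members' levels, was not tested.

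**Figure D5:**
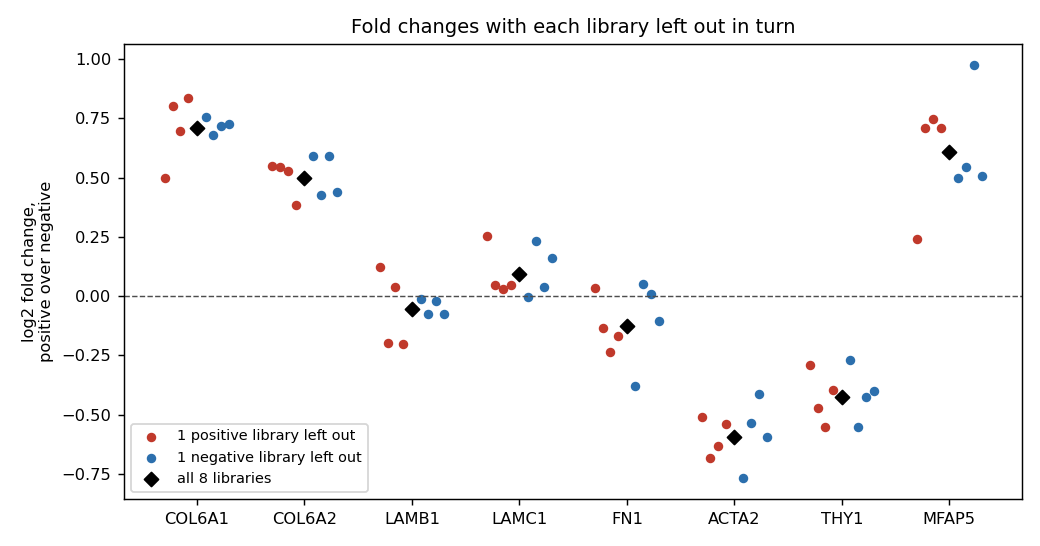
Log2 fold change of positive over negative cells (vertical axis) for each member with all 8 libraries (diamonds) and with 1 positive (red) or 1 negative (blue) library left out. COL6A1, COL6A2 and MFAP5 stayed above 0 and ACTA2 and THY1 below 0 with each library left out, while LAMB1, LAMC1 and FN1 crossed 0.

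The members did not vary as 1 block over the 8 libraries. Pearson's r of log2-CPM was 0.77 between LAMC1 and FN1, 0.73 between FN1 and ACTA2, 0.48 between COL6A1 and COL6A2, 0.43 between LAMB1 and LAMC1 and -0.71 between COL6A1 and LAMB1. Among 9346 genes of at least 5 CPM, those most like COL6A1 were PRIMPOL and NUMBL (r = 0.99 and 0.98) and those most like COL6A2 were RPL13AP7 and PLEKHM3 (0.93 and 0.88). For LAMB1 they were NPIPP1 and FGFR4 (0.97 each), for LAMC1 DNASE2 and SMG1P7 (0.97 each) and for FN1 RENBP and TMEM38A (0.98 each). For ACTA2 they were APBB1IP and RNF32 (0.97 and 0.95), for THY1 ZC3H14 and USF1 (0.99 and 0.98) and for MFAP5 TAZ and POLR3E (0.98 and 0.97). All these values share the same 8 libraries and their depths, 2 of which stood apart, and the highest of 9346 values is high by selection, so they are descriptions only.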

How the data were processed

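RNA of sorted A549 cells was made into amplicon libraries with an Ion Torrent transcriptome kit, per the labels' protocols. Per the submitters' processing notes, fastp 0.20.1, Salmon 1.9 and GRCh38 were used. The table deposited by the authors holds estimated counts for each gene, all whole numbers, so rounding changed nothing. The sources used here give neither transcript summing, strand handling nor row filtering. Every row was above 0 in at least 5 libraries.

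Rows were kept with filterByExpr (minimum count 10, total 15), leaving 11351 and removing 2490, and tested with edgeR 4.0.16 (TMM, robust quasi-likelihood test, R 4.3.3), with Benjamini-Hochberg adjustment over all tested rows and a threshold of 0.05. Intervals reflect library spread and counting error only, and the labels name no molecular identifiers. Log2-CPM used a prior count of 2. No 2 libraries agreed within sampling noise (chi-square per degree of freedom of 7.98 or more). Methods were tested on simulated counts.

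Members and lists were chosen with earlier results of these data known. Named beside the members were the 3 tested genes of smallest p in each list, markers not measured and the 2 genes most like each member. Other basement membrane, actin and contractile genes were named after their values were seen. Alternatives were other scalings, filters and tools (DESeq2 1.42.0, limma 3.58.1 voom), no robust estimation, summed rows and left-out libraries. Counts of 3 lists and removal of a GC and length curve (a value for 98.3% of tested rows) were added after seeing the data. Loci are from GENCODE. The values of 1 gene of the basement membrane list, which stays in its counts, median and sum, are not reported here.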

Additional observations from a re-analysis of the deposited data

Results flagged for a closer look

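Each member, the 2 ratios and 5 summed lists were examined in both groups for a library far from the other 3 by Dixon's criterion, which chance meets in about 1 of 20 groups. Of 30 groups 3 were flagged. LAMC1 was at 65.4 CPM in positive 1, with the other positive libraries between 110 and 118. MFAP5 was at 3.17 CPM in positive 1, with the others between 1.33 and 1.44, and at 2.01 CPM in negative 7, with the others between 0.86 and 1.02. The MFAP5 values rest on 19 and 13 counts.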

How the results depend on the processing

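No paired analysis was possible because each library number was used once. The 19 alternatives left 0 rows past the adjusted threshold except DESeq2's Wald test, with 52, and 0 to 1 with 1 library left out, and no member passed in any. Members at an unadjusted p under 0.05 numbered 2 with all libraries, 1 to 3 with 1 left out and 1 with the GC and length curve removed. COL6A1, COL6A2, ACTA2, THY1 and MFAP5 kept their direction in every alternative that tested them (MFAP5 was not tested at 50 counts). LAMB1, at -0.06, turned to 0.013 with upper quartile scaling, 0.064 with library totals, 0.13 with voom and 0.17 without both positive 1 and negative 2, and ran from -0.20 to 0.12 with 1 library left out. LAMC1 ran from -0.0058 to 0.25 and FN1 from -0.38 to 0.049 likewise. The log2 ratio difference of COL6A2 to COL6A1, -0.16, ran from -0.40 to 0.069 with 1 library left out, the highest without positive 1, and was 0.11 without both. The 7 basement membrane genes at an unadjusted p under 0.05 became 6 to 8, and none was lower. The causes were not tested. Among the members depth limits MFAP5 most, at 6 to 19 counts.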
